A study of Mus musculus with 2 samples.

Results

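Mir218-1 and Mir218-2 are the 2 mouse hairpin genes that make the microRNA miR-218. They were picked by name as 2 of the 1973 genes counted in a microRNA sequencing experiment on hindbrain, from which the pons, medulla and cerebellum develop. The tissue came from healthy B6NCrl mouse embryos of both sexes at embryonic day 16.5. There were 2 biological replicates, each a library from its own pool of embryos. The pool of replicate 2 came from 37 embryos, while the labels do not say how many made up replicate 1. The labels name no treatment and no mutation, so there was no comparison between conditions.

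MicroRNAs are cut from hairpins within longer transcripts, and 1 or both strands of the hairpin stem are loaded onto an Argonaute protein, where the bases near the 5′ end, called the seed, pair with target messenger RNAs. The miR-218 hairpins lie in introns of Slit2 and Slit3, which encode secreted axon guidance proteins that act through Robo receptors. In mouse, miR-218 is known as a microRNA of brainstem and spinal motor neurons, where it represses neuronal genes that other neuron types use and is needed for neuromuscular function. In other tissues, blood vessels among them, miR-218 is known to repress Robo1 and Robo2.

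Both genes read in the direction of their hosts. Mir218-1 (ENSMUSG00000065603.1) lies on the plus strand at chr5:48223942-48224051 (mm10), and Mir218-2 (ENSMUSG00000065583.1) on the plus strand at chr11:35616816-35616925. The RefSeq sequences (build GRCm38.p6, the same assembly as mm10) are shown because they decide which reads can be given to 1 copy. In the 2 hairpins, capitals mark the mature arms, with the 5p arm first:
Mir218-1 hairpin: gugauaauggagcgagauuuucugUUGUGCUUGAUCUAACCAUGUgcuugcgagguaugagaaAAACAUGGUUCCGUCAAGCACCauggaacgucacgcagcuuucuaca
Mir218-2 hairpin: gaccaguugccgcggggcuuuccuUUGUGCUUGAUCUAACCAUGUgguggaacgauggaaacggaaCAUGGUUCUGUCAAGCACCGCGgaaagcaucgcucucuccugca

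Each hairpin has 110 bases, and 71 of the 110 positions (64.5%) were identical in an ungapped comparison. The GC content was 45.5% in Mir218-1 and 54.5% in Mir218-2. In the mature sequences, capitals mark the seed, bases 2 to 8:
miR-218-5p, from both hairpins: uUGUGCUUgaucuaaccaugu
miR-218-1-3p, from Mir218-1: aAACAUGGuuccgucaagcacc
miR-218-2-3p, from Mir218-2: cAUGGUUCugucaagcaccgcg
The 5p arm, the one known to act in motor neurons, has 21 bases and occupies bases 25 to 45 of either hairpin. The 3p arms differ. Against the best-matching stretch of the Mir218-2 hairpin, miR-218-1-3p shows the substitutions A1G and C12U, where positions count from 1 at the 5′ end of miR-218-1-3p and the Mir218-2 base stands last. RefSeq also places the start of miR-218-2-3p 3 bases further along, so the annotated seeds of the 3p arms differ, although neither substitution falls within bases 2 to 8.

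These sequences limit what a count can measure. The longest run shared by the hairpins was uugugcuugaucuaaccaugug, which is miR-218-5p plus 1 further base, 22 bases in all. The base before the 5p arm differs between the copies, and so does the base after this run. A read that starts at the first base of miR-218-5p and matches without mismatch could be told apart only from a length of 23 bases on. Of the 89 windows of 22 bases in each hairpin 1 was shared, as were 5 of 93 windows of 18 bases, and all of these lay in the run. No window of 18 to 25 bases occurred in any of the other RefSeq hairpins, 1005 in all with the miR-218 hairpins. The rest of the genome was not searched.

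Reads that fitted several places were kept out of the gene counts and reported only as a total of 3802165 reads in replicate 1 and 3410352 in replicate 2. The counts given here therefore leave out reads of the plain 21-base miR-218-5p if the 2 loci were treated as 2 places. In that case they come from the 3p arms, from longer or shifted 5p reads, or from the rest of the hairpins. How they divide among these was not tested, because the tables give 1 total per gene. The values measure the 2 loci where they can be told apart, and not the amount of miR-218-5p.

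Only 1 other mouse gene in RefSeq carries the miR-218-5p seed. It is Mir7002, whose 3p arm lies on the minus strand at chr2:114150516-114150534 and shares the seed, in capitals, and little else:
miR-7002-3p: uUGUGCUUccccuugccag
Mir7002 had 3 counts in replicate 1 and 0 in replicate 2. A count of 0 allows up to 0.673 CPM (counts per 1000000 sense counts of a library) in replicate 2. The miR-218 hairpins therefore carried nearly all counts on genes with this seed. Those counts may come from arms without the seed, so they do not show how much RNA carried it. The seed of miR-218-1-3p recurs in Mir496b, which had 0 counts in both libraries, and that of miR-218-2-3p in no other of the 1679 mature names.

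The hairpins occupy matching places in the host genes. In either host, the coding transcript that spans the longest stretch of the genome has 36 exons, and the hairpin lies in its intron 14. Mir218-1 starts 240.8 kb into the 325 kb Slit2 gene (chr5:47983138-48307733). Its intron of 4572 bases leaves 601 bases between the hairpin and the next exon. Mir218-2 starts 495.6 kb into the 587 kb Slit3 gene (chr11:35121224-35708507), in an intron of 9571 bases with 5082 bases to the next exon. Intron numbers depend on the transcript, and the Slit2 hairpin lies in intron 15 or 16 of the other coding transcripts that span it. None of the 23 Slit2 or 4 Slit3 transcripts in GENCODE M21 has an exon that overlaps the hairpin. The messenger RNAs of Slit2 and Slit3 were not measured in these libraries of RNA under 30 bases.

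**Figure D1:**
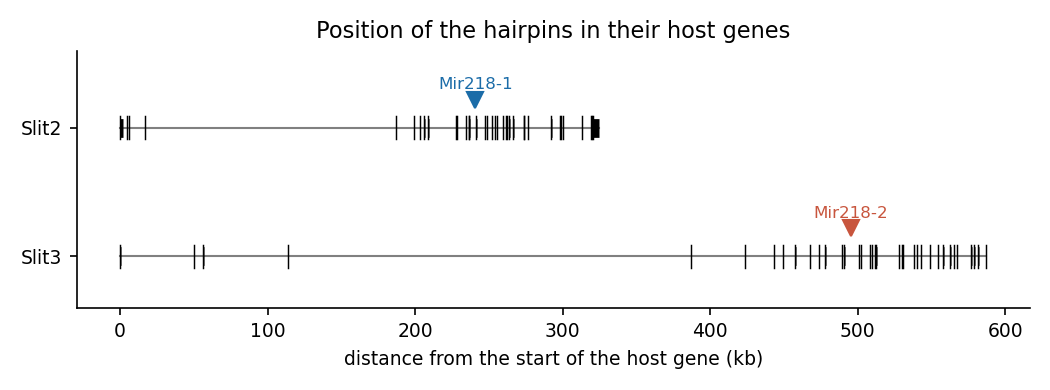
Positions of the hairpins in Slit2 (above) and Slit3 (below), as distance from the start of the host gene in kb. Vertical bars are the exons of the coding transcript that spans the longest stretch of the genome. Triangles mark Mir218-1 at 240.8 kb and Mir218-2 at 495.6 kb, both past the long introns near the start.

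Both copies were detected, and Mir218-2 had about 4-fold the counted reads of Mir218-1. Mir218-1 had 159 sense reads in replicate 1 and 123 in replicate 2, out of 5097205 and 4460836 sense reads on all genes. These are 31.2 CPM (exact binomial 95% interval 26.5 to 36.4) and 27.6 CPM (22.9 to 32.9), or 29.4 ± 2.56 CPM (SD, n = 2). Mir218-2 had 688 and 445 sense reads, which are 135 CPM (125 to 145) and 99.8 CPM (90.7 to 109), or 117 ± 24.9 CPM (SD, n = 2). All 4 values of the 2 copies kept their order, and the lowest Mir218-2 value was above the highest Mir218-1 value. The intervals of the 2 libraries overlapped for Mir218-1 and did not for Mir218-2. All such intervals here reflect counting error alone, since no molecular identifiers are recorded and several reads can stem from 1 molecule. On the opposite strand both genes had 0 reads in both libraries, which allows up to 3 reads each.

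**Figure D2:**
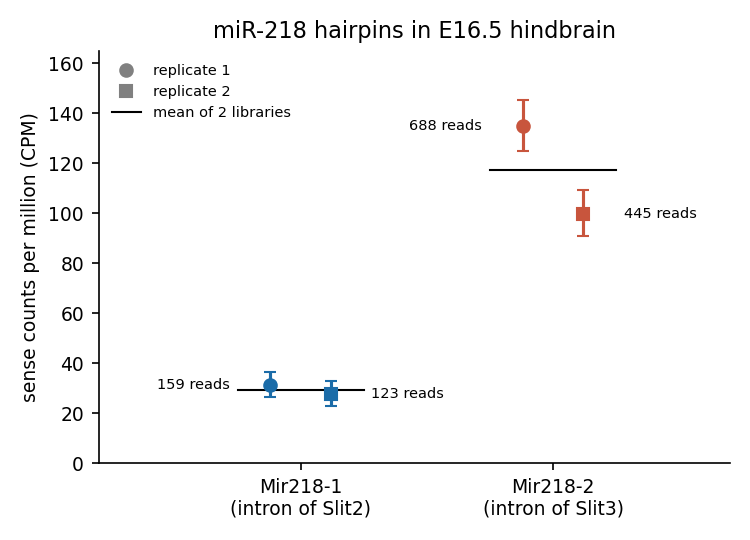
Level of Mir218-1 and Mir218-2 in CPM of sense counts, with circles for replicate 1, squares for replicate 2, exact binomial 95% intervals and a line at the mean. Mir218-1 lies at 31.2 and 27.6 CPM, below Mir218-2 at 135 and 99.8 CPM in both libraries.

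Together the hairpins held 847 reads in replicate 1 and 568 in replicate 2, or 0.0166% (exact binomial 95% interval 0.0155 to 0.0178) and 0.0127% (0.0117 to 0.0138) of sense counts. The mean share was 0.0147% ± 0.00275 (SD, n = 2). These levels describe whole tissue, in which fewer cells of a type and less RNA per cell cannot be told apart. No messenger RNA marker of motor neurons was measured, and in which cells the reads arose was not tested.

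The ratio of the copies does not depend on how libraries are scaled. Mir218-1 over Mir218-2 gave a log2 ratio of -2.11 (exact binomial 95% interval -2.37 to -1.86) in replicate 1 and -1.86 (-2.16 to -1.56) in replicate 2. The mean of -1.98 ± 0.18 (SD, n = 2) was past a limit of 2 SD with the same sign in both libraries, the rule used here for a difference. With only 2 libraries, the smallest p an exact sign-flip test allows is 0.5. Mir218-1 supplied 18.8% (16.2 to 21.6) of the pair's reads in replicate 1 and 21.7% (18.3 to 25.3) in replicate 2, and these intervals overlapped. A bias of counting that both libraries share would not show in this spread, and whether the same share of reads can be told apart at both hairpins was not tested.

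Unequal copies were common among microRNAs made by a pair of loci. Of 25 such pairs, 15 had both copies detected, meaning 10 or more counts in each library. The ratio was past 2 SD in 14 of these 15 pairs, or 93.3%, so passing is not a mark of miR-218. By the size of the mean log2 ratio the miR-218 pair ranked 7 of 15, where the other 14 ranged from 0.36 for Mir135a-1 and Mir135a-2 to 6.68 for Mir181b-1 and Mir181b-2, with a median of 1.16. The closest in size was the miR-26a pair, for which Mir26a-1 over Mir26a-2 gave -2.10 in both libraries. That ratio rests on few reads, 25 and 24 counts for Mir26a-1 and 107 and 103 for Mir26a-2 in replicates 1 and 2. Among neural pairs, Mir219a-1 over Mir219a-2, of the oligodendrocyte lineage, was further from equality at -3.43 ± 0.07, while Mir128-1 over Mir128-2 was at 0.94 ± 0.07 and Mir138-1 over Mir138-2 at 0.58 ± 0.11 (SD, n = 2). The spread of 0.18 between libraries for miR-218 was the 4th largest of the 15, against a median of 0.07 for the others. Counting error is part of this spread, and the pairs differ widely in read number.

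All 14 of these pairs with RefSeq hairpins for both copies, miR-218 among them, had 1 mature arm identical between the copies. None was found to have both, but for the miR-219a and miR-129 pairs only the 5p arms could be compared. Their longest shared run was 22 to 28 bases with a median of 24. At 22 bases the miR-218 run was the shortest, along with those of the miR-219a and miR-92 pairs.

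**Figure D3:**
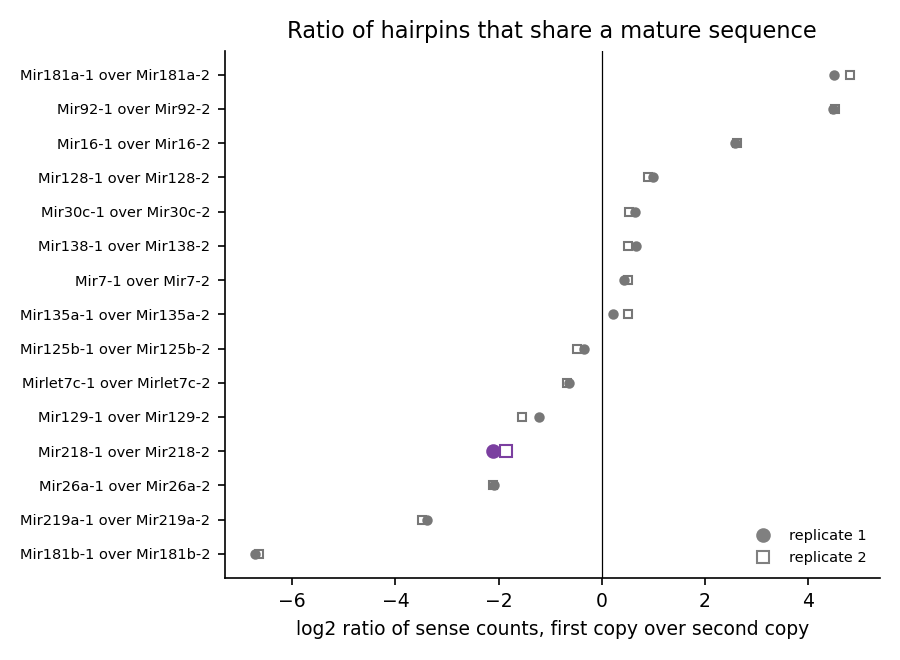
Log2 ratio of sense counts of the first copy over the second for 15 pairs of hairpins that share a mature sequence, with filled circles for replicate 1 and open squares for replicate 2. The miR-218 pair, in purple, lies at -2.11 and -1.86, next to the miR-26a pair at -2.10.

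By the reads counted here, neither locus was among the abundant microRNA genes of this tissue. Reads that fitted several places are not counted, so both loci, like other genes that share a mature sequence, may stand too low. Among the 385 detected genes Mir218-1 ranked 274 and Mir218-2 ranked 207 by mean CPM. Of the detected genes 28.8% were lower than Mir218-1 and 46.2% were lower than Mir218-2, and the median was 150 CPM. Their sum of 147 ± 27.5 CPM (SD, n = 2) was close to that median. The place hardly moved between pools, with ranks among all listed genes of 274 in replicate 1 and 272 in replicate 2 for Mir218-1, and 202 and 213 for Mir218-2.

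Among intronic microRNAs, and with the same limit, Mir218-1 lay below the median and Mir218-2 above it. Of 661 listed hairpins within sense introns of protein-coding genes 153, or 23.1%, were detected, with a median of 90.0 CPM. Mir218-1 ranked 95 and Mir218-2 ranked 73 of the 153. The most abundant of these was Mirlet7g, in Wdr82, at 71186 ± 3958 CPM (SD, n = 2), followed by Mir335, Mir10b, Mir126a and Mir99b. The other 1312 listed genes had 17.7% detected at a median of 167 CPM.

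**Figure D4:**
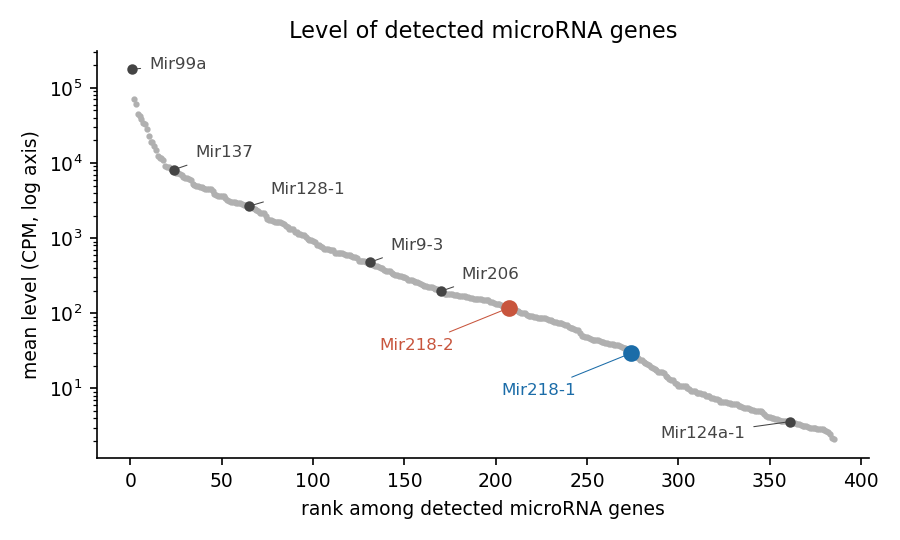
Mean CPM, on a log axis, of the 385 detected microRNA genes in order of level. Mir218-1 (rank 274) and Mir218-2 (rank 207) lie below Mir137, Mir128-1 and Mir9-3, and above Mir124a-1. Reads that fitted several places are not counted, so genes that share a mature sequence may stand too low.

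Over the 2 libraries, likeness was measured as the distance between log2 CPM values. The gene closest to Mir218-2 was Mir20b, a hairpin of the X-linked miR-106a-363 cluster, at 130 and 93.9 CPM in replicates 1 and 2, with a distance of 0.10. Both values fell within the counting intervals of Mir218-2. Mir494, Mir503, Mir155 and Mir106a came next, with distances up to 0.28. Closest to Mir218-1 was Gm23450, a microRNA gene on chromosome 7, at 30.2 and 32.5 CPM and a distance of 0.24. The erythroid Mir486, in an intron of Ank1, followed at 33.7 and 32.3 CPM, and then Mir1198, Mir551b and Mir879, with distances up to 0.30. Values over 2 libraries of 1 tissue show a like level and no more.

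MicroRNAs known from motor neuron specification lay on both sides of the miR-218 loci. Of 15 listed genes 14 were counted and 12 detected, at a median of 537 CPM for those detected, against 150 CPM for all detected genes. Of the 12 detected, 10 were above Mir218-1 and 7 above Mir218-2. Among all detected genes, 28.8% were lower than Mir218-1 and 46.2% lower than Mir218-2. Whether the list stands apart from these was not tested. Mir17, of the cluster known to protect limb motor neurons, led at 11640 ± 2498 CPM (SD, n = 2), followed by its cluster members Mir20a, Mir18 and Mir92-1. Mir27b, known for its part in Hox protein output in motor neurons, had 699 ± 37.6 CPM, and Mir375, known from human motor neuron progenitors, 598 ± 7.38 CPM. Mir196a-1 had 0 counts, and Mir9-1 was not analysed here. For Mir9-2, at 4 and 5 counts, and Mir9-3, at 2474 and 2082 counts, the mature sequence is shared between loci as in miR-218, so the same limit holds for these counts.

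Of 15 general neuronal genes, all were counted and 13 detected, where 19.5% of all listed genes were detected. Of the 13, 12 were above Mir218-1 and 11 above Mir218-2. Among all detected genes, 28.8% were lower than Mir218-1 and 46.2% lower than Mir218-2. Whether this list stands apart from them was not tested. Mir149, Mir137, Mir128-1 and Mir153 led, from 19035 ± 935 CPM for Mir149 to 1950 ± 150 CPM for Mir153 (SD, n = 2). The lowest were Mir124a-1, Mir124a-2 and Mir124a-3, at 22, 11 and 1 counts in replicate 1. They share the mature sequence of the pan-neuronal miR-124, so the limit given for miR-218 holds for these counts too. As a check of the tissue label, Mir10a and Mir10b, Hox-cluster microRNAs of hindbrain and spinal cord, were present at 60429 ± 3641 and 33002 ± 7054 CPM (SD, n = 2).

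Between the 2 libraries, Mir218-2 passed an exact binomial test that allows for counting noise only, and Mir218-1 did not. With 1 library from each pool, whether the pools themselves differed cannot be told. With totals scaled by the trimmed mean of M-values (TMM), the log2 ratio of Mir218-1 in replicate 2 over replicate 1 was -0.11 (exact binomial 95% interval -0.46 to 0.24), with an adjusted p of 0.687 in the exact two-sided binomial test. Mir218-2 had a log2 ratio of -0.37 (-0.55 to -0.20), 1.29-fold higher in replicate 1, with an adjusted p of 7.8e-05 in the same exact test. These p-values were adjusted over all 401 genes that had 20 or more counts in the libraries together. The test knows no spread beyond counting noise, and it sets 1 library against the other.

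So 1 of the 2 hairpins passed, where 46.4% of the tested genes did. Higher in replicate 1 were 24.4% of tested genes (98) and higher in replicate 2 were 21.9% (88). Without TMM, on plain library totals, 131 genes were higher in replicate 1 and 62 in replicate 2. The log2 ratio of Mir218-1 was then -0.18 and that of Mir218-2 -0.44. Among the 47 other tested genes within 2-fold of the level of Mir218-1, 13 passed and 34 had a larger difference than Mir218-1. Among the 85 within 2-fold of Mir218-2, 44 passed and 15 had a larger difference than Mir218-2. edgeR's exact test at the biological coefficient of variation (BCV) of 16.3% estimated from both libraries called 3 genes, or 0.748% of those tested, and neither hairpin (unadjusted p = 0.805 for Mir218-1 and 0.284 for Mir218-2, adjusted p = 1 for both). Because that BCV came from the same 2 libraries, the difference under test was part of the spread allowed for. A gene of common difference could hardly pass, and a missing call does not show that the libraries were alike. That 1 copy passed the exact binomial test and the other did not does not show that they differ. The intervals of their ratio to each other overlapped between the libraries.

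The lists of other microRNAs differed between the libraries in either direction. The summed level of the muscle list was 398 CPM in replicate 1 and 40.4 CPM in replicate 2, of which Mir206 supplied 370 and 24.2 CPM. Of its 7 counted members 3 were detected and 4 tested, of which 3 passed the exact binomial test as higher in replicate 1, the direction of Mir218-2, and 0 as higher in replicate 2. Over all tested genes these shares were 24.4% and 21.9%. The test passes smaller differences at higher counts, as for Mir10a at a log2 ratio of -0.06 and Mir143 at 0.07. With only the 304 genes of 100 or more summed counts tested, 95 passed as higher in replicate 1 and 86 in replicate 2. Whether any list stands apart from genes of like level was not tested. The muscle list members Mir1a-1, Mir133a-1 and Mir133a-2 had 0 counts in both libraries. Mir1a-2, also on that list, was not analysed here. The Hox-cluster list summed to 102416 and 86869 CPM in replicates 1 and 2, with 4 of 5 tested members higher in replicate 1 and 0 in replicate 2 by that test. The motor neuron list summed to 25052 and 19273 CPM, with 5 of 12 tested members higher in replicate 1 and 1 in replicate 2. The 5 were Mir17, Mir20a, Mir18 and Mir92-1, all of the same cluster, and Mir196b, which the Hox-cluster list also holds. They can therefore not be read as 5 separate cases. Mir17 alone supplied 13407 and 9874 CPM of the sums in replicates 1 and 2. The oligodendrocyte lineage list, with all 3 members detected, summed to 2414 and 2022 CPM, with 2 higher in replicate 1 and 1 in replicate 2. The vascular list went the other way from Mir218-2, with all 3 members detected and higher in replicate 2 and sums of 34724 and 36467 CPM. The general neuronal list summed to 37301 and 37196 CPM, with 4 of 13 tested members higher in replicate 1 and 6 in replicate 2. Of these sums Mir149 supplied 18373 and 19696 CPM and Mir137 9157 and 7199 CPM, in opposite directions. The erythroid list, with all 3 detected, summed to 216 and 206 CPM, with 1 higher in either replicate. The part of any of these in the difference of Mir218-2 was not tested.

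**Figure D5:**
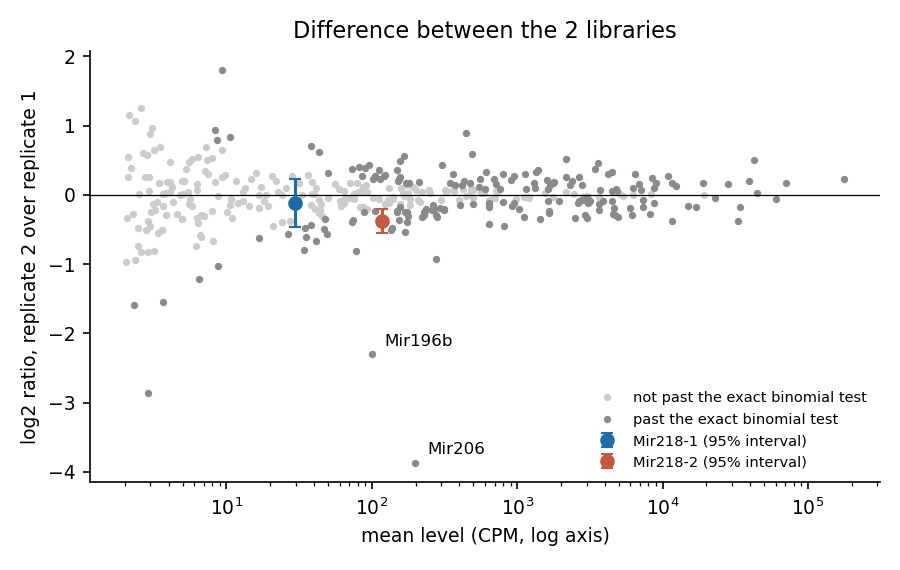
Log2 ratio of replicate 2 over replicate 1 after TMM scaling against mean CPM (log axis) for the 401 tested genes, with dark grey for genes past the exact binomial test. Mir218-1 at -0.11 and Mir218-2 at -0.37, with 95% intervals, lie within the cloud of genes of like level, while Mir206 and Mir196b lie far below.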

How the data were processed

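The authors deposited raw read counts per gene for each library, counted on mm10 with GENCODE M4 per the text files deposited with the samples. The aligner and counter, not given in the sources used here, left tables that hold counts for either strand and for each strand alone. The strand column with the larger total, 97.6% of assigned reads in each library, was taken as sense. Summary lines for unmapped (15.5% of reads in replicate 1, 15.2% in replicate 2), multimapping (34.5% and 35.1%) and other unassigned reads stayed out of the totals. Identifiers were matched without version to GENCODE M21 (1894 of 1973 matched), and sequences are from RefSeq.

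CPM is a count per 1000000 sense counts. The exact binomial test used TMM totals with Benjamini-Hochberg adjustment at 0.05. It was tried on simulated counts that held counting noise only, so that trial does not cover further spread between libraries. A host is a protein-coding gene on the same strand with no exon over the hairpin. The rule for naming genes took both hairpins, the 4 leading members of each list and those at 0 (not all are printed), the 5 genes nearest in level, the pairs, the 5 leading intronic genes and genes that share a seed. Mir27b, Mir375, Mir124a-1, Mir124a-2, Mir124a-3, Mir9-2 and Mir9-3 were named after their values were seen. The hairpins and lists were chosen with earlier results of these data known. Alternatives were other scalings, totals, count minimums and strands, and each library alone. Python 3.11.15, scipy 1.17.1, R 4.3.3, edgeR 4.0.16 and DESeq2 1.42.0 (size factors only) were used.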

Additional observations from a re-analysis of the deposited data

How the results depend on the processing

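Mir218-1 stayed lower than Mir218-2 under all settings tried, with a mean log2 ratio between -2.11 without replicate 2 and -1.86 without replicate 1. Levels moved with the total they were divided by. Without the most abundant gene in the total, Mir218-1 was at 35.7 CPM, Mir218-2 at 142 CPM and their share 0.0178%. With multimapping reads in the total they were at 16.7 CPM, 66.9 CPM and 0.00837%. Leaving out a library gave 27.6 to 31.2 CPM for Mir218-1, 99.8 to 135 CPM for Mir218-2, a share of 0.0127% to 0.0166% and 399 to 407 detected genes. The difference of Mir218-2 between libraries passed the exact binomial test under every scaling and count minimum tried, with log2 ratios from -0.44 to -0.37. In edgeR's exact test at the estimated BCV it had a log2 ratio of -0.37 and did not pass (adjusted p = 1), and that test called 3 genes in place of 186, since it allows for the spread between libraries besides counting noise. The BCV came from the same 2 libraries and so holds the difference under test. This edgeR result therefore does not decide whether Mir218-2 differed. Of 45 values under other settings, 37 stayed within the limits set for a change. Another 7 moved in size (the levels, shares and number of genes just given) and 1, the edgeR value of Mir218-2, lost its call. Part of the 37 could not move: with 2 libraries, levels, shares and ratios of 1 library always lie within the SD limit. The ratio of the copies was also fixed on unstranded counts, since neither had reads on the opposite strand. With 2 libraries of 1 group, and with reads that fit several loci outside the counts, neither a difference between conditions nor the amount of miR-218-5p can be read from these data. No paired analysis was possible because the series has 1 group.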
